A study of Rattus norvegicus with 14 samples.

Results

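The genes described here report on the aryl hydrocarbon receptor (AhR) and on NRF2, the pair of sensors through which cells answer foreign chemicals and oxidants. Of 10 genes chosen by name, 8 were found by gene name among the 18174 genes of the count table, and all 8 passed the filter on low counts. They were Cyp1a1, Tiparp and Ahr on the AhR side, Nqo1, which answers both sensors, and Hmox1, Gclc, Gclm and Txnrd1 on the NRF2 side. Cyp1b1 and Srxn1 were not analysed here.

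AhR is a receptor of the cytoplasm that moves to the nucleus when a ligand such as a dioxin binds, pairs with ARNT and switches on Cyp1a1 and Tiparp at short elements with the core letters GCGTG. NRF2, encoded by Nfe2l2, is held down by KEAP1 until oxidants or electrophiles modify that protein, and then acts through the antioxidant response element. The enzymes it raises make glutathione, reduce thioredoxin and quinones and break down heme. In the testis the same enzymes stand beside steroid synthesis, whose mitochondrial P450 reactions leak oxidants.

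Testes came from fetuses of Harlan Sprague Dawley dams gavaged with dicyclohexyl phthalate (DCHP), a phthalate ester plasticizer, in corn oil from gestational day 14 to 18, and were taken on gestational day 18. There were 3 litters on vehicle and 3 each on DCHP at 100, 300 and 600 mg/kg/day, while 2 litters had 900 mg/kg/day. The testes of a litter were pooled, so each of the 14 libraries is 1 litter, and the labels name no transgene or mutant allele. The assay was TempO-Seq, in which neighbouring probes that find the same RNA are joined and then sequenced. A gene's level therefore depends on its probes, and levels are not compared between genes.

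Total estimated counts ran from 5558873 to 11272861 per library, and the tests covered 12719 genes. Levels are CPM, counts scaled to a fixed library total after TMM scaling of library size. The first principal component held 36.1% of the variance. Replicate 1 of the 100 mg/kg/day group (-65.1) and replicate 1 of the vehicle group (-42.6) had negative scores, as did both 900 mg/kg/day libraries (-38.2 and -22.8), and the other 10 libraries scored between -1.84 and 35.6. These vehicle and 100 mg/kg/day libraries are called the 2 litters apart, and several of the results, though not all, are given with and without them. Leydig markers (7 of 7 tested), Sertoli markers (5 of 7; Fshr had at most 6 counts) and germ cell markers (6 of 7; Dazl had at most 14 counts) were detected.

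Promoter sequences of 6 of the 8 genes were at hand (RefSeq, build GRCr8), each spanning 250 bases before to 50 bases after a gene's start. The AhR element core GCGTG, read on the other strand as CACGC, lay in windows of 4 genes, Tiparp, Nqo1, Gclc and Txnrd1, and 29.7% of all 33469 promoter windows of this length hold it. The antioxidant element TGACNNNGC, read on the other strand as GCNNNGTCA, lay in windows of 2 genes, Gclm and Txnrd1, against 12.1% of all windows. Txnrd1 had 2 windows, and only 1 of them held matches. The counts are of genes and the shares are of windows, so they are not like for like. The windows of Tiparp and Gclm are printed as examples of each element, with the matched letters in capitals. The sequence of Tiparp is chr2:152063519-152063818, plus strand, with its match 136 bases before the start, and that of Gclm is chr2:213031885-213032184, plus strand, with its match 172 bases before the start. A match describes letters only and is not evidence of binding.
Tiparp: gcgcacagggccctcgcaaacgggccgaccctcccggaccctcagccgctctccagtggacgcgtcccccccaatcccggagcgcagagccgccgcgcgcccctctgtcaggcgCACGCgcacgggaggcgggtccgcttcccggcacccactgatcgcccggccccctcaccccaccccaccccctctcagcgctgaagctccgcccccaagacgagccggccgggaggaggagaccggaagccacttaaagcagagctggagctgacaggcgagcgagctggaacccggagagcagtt
Gclm: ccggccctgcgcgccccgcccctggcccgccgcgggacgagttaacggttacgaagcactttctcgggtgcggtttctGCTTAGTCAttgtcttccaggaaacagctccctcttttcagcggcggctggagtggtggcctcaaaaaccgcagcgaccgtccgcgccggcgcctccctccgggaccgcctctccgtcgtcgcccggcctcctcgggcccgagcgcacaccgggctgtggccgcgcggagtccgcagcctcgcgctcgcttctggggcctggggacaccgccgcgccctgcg

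None of the 8 genes passed the test at any dose. With edgeR's quasi-likelihood F test and p-values adjusted by Benjamini-Hochberg over all tested genes (threshold 0.05), 0 of 8 rose and 0 of 8 fell in each of the 4 dose comparisons and in the linear trend over dose. Over all tested genes the same rule called 0% at 100 mg/kg/day, 0.0472% at 300 (all of them lower), 0.22% at 600 (0.0314% higher, 0.189% lower) and 0.252% at 900 mg/kg/day (0.0472% higher, 0.204% lower). In the trend it called 0.425% (0.0943% higher, 0.33% lower), so calls were rare in the table as a whole. At an unadjusted p under 0.05 the edgeR counts were 0, 0, 0, 1 and 1 of 8, against 3.4%, 3.65%, 4.79%, 4.99% and 5.09% of all tested genes. The gene was Hmox1 both times, and it was lower. DESeq2 called 0 of 8 in each comparison too, with the same counts at an unadjusted p under 0.05. The 4 dose comparisons share the vehicle litters, so their values are not independent.

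**Figure D1:**
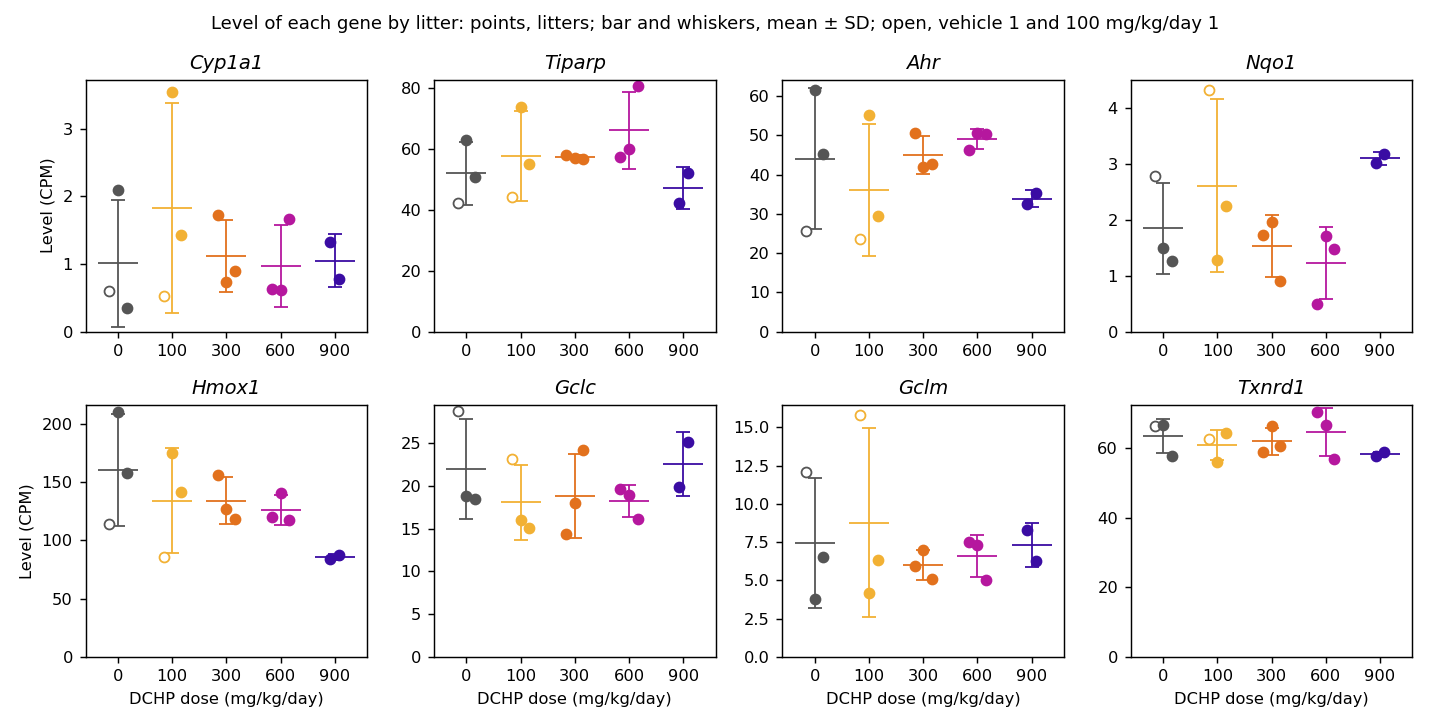
Level of each gene in CPM (y axis, from 0) in every litter, by DCHP dose in mg/kg/day (x axis). Points are litters, the bar and whiskers are mean ± SD, and open points are the 2 litters apart. Hmox1 was at 83.6 and 87.1 CPM at 900 mg/kg/day, with 1 litter at 100 mg/kg/day (85.7 CPM) as low, and Txnrd1 lay between 56.1 and 70.4 CPM in all litters.

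Cyp1a1 encodes the P450 enzyme that oxidizes polycyclic aromatic compounds, and it is the classic readout of AhR activity. The gene (ENSRNOG00000019500, chr8:58096077-58102126 on rn7, plus strand) was close to the detection limit, with 3 to 28 counts in a library and a mean of 10.1. Its counts were 6, 21 and 3 in vehicle litters, 4, 28 and 14 at 100, 16, 6 and 6 at 300, 5, 4 and 9 at 600, and 11 and 9 at 900 mg/kg/day. The highest counts were those of replicate 2 on vehicle and of replicate 2 at 100 mg/kg/day, and every dosed group overlapped the vehicle group. At 900 mg/kg/day the log2 fold change was 0.013 ± 0.86 (standard error), and its 95% interval ran from 0.277-fold to 3.67-fold. The interval at 100 mg/kg/day, where the log2 fold change was 0.83 ± 0.73, ran from 0.601-fold to 5.27-fold. Cyp1a2, another AhR target, was as sparse, with a mean of 8.71 counts, and its trend was -0.12 ± 0.071 log2 per 100 mg/kg/day (edgeR adjusted p = 0.9999).

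Tiparp encodes a poly(ADP-ribose) polymerase that is induced by dioxin and marks AhR for loss, so it is both target and brake. It lies on rn7 at chr2:149753682-149780328, plus strand (ENSRNOG00000011238), and was measured well, with 340 to 633 counts. Its level was 42.2, 63.0 and 50.9 CPM in vehicle litters, 44.4, 73.9 and 55.0 CPM at 100, 58.0, 57.1 and 56.9 CPM at 300, 57.5, 60.2 and 80.8 CPM at 600, and 42.4 and 52.0 CPM at 900 mg/kg/day. All groups overlapped the vehicle group, and the litters at 300 mg/kg/day lay close together. The log2 fold change was 0.35 ± 0.20 at 600 mg/kg/day, with an interval of 0.939-fold to 1.72-fold. At 900 mg/kg/day it was -0.14 ± 0.23, with an interval of 0.648-fold to 1.27-fold.

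Ahr, the gene of the receptor itself (ENSRNOG00000004342, chr6:52234089-52271569 on rn7, minus strand), had 180 to 618 counts. It was at 25.6, 61.5 and 45.1 CPM in vehicle litters, 23.5, 55.1 and 29.4 CPM at 100, 50.6, 41.9 and 42.8 CPM at 300, 46.3, 50.5 and 50.5 CPM at 600, and 32.4 and 35.4 CPM at 900 mg/kg/day. The lowest values belonged to the 2 litters apart. The spread within the vehicle group (SD 18.0 CPM on a mean of 44.1) exceeded every difference between group means. The log2 fold change at 900 mg/kg/day was -0.38 ± 0.35, an interval of 0.458-fold to 1.29-fold. It turned on the vehicle litters, and was -0.65 without vehicle replicate 1 and -0.060 without vehicle replicate 2. Without the 2 litters apart it was -0.68 ± 0.23 and did not pass (edgeR adjusted p = 0.0588).

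Nqo1 encodes NAD(P)H quinone reductase, which reduces quinones without the radical step and answers both AhR and NRF2. It lies at chr19:35295573-35310558 on rn7, minus strand (ENSRNOG00000012772), and had 4 to 37 counts. Levels were 2.78, 1.49 and 1.26 CPM in vehicle litters, 4.31, 1.27 and 2.24 CPM at 100, 1.72, 1.96 and 0.900 CPM at 300, 0.500, 1.71 and 1.48 CPM at 600, and 3.01 and 3.18 CPM at 900 mg/kg/day. Both 900 mg/kg/day litters lay above all vehicle litters, but the highest value was that of replicate 1 at 100 mg/kg/day. That litter and replicate 1 on vehicle, the highest vehicle litter, were the 2 litters apart. The log2 fold change at 900 mg/kg/day was 0.74 ± 0.54, and it did not pass (edgeR adjusted p = 0.852, interval 0.745-fold to 3.73-fold). With 1 litter left out it ran from 0.53 without vehicle replicate 3 to 1.16 without vehicle replicate 1. At 600 mg/kg/day it was -0.63 ± 0.55, so the values did not follow dose in order.

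Hmox1 stood out among the 8 genes. It encodes heme oxygenase 1, which opens heme to biliverdin, carbon monoxide and iron and is repressed by BACH1 until heme releases that factor. The gene (ENSRNOG00000014117, chr19:13467244-13474080 on rn7, plus strand) had 637 to 2107 counts. Its level was 114, 209.7 and 157 CPM in vehicle litters, 85.7, 175 and 142 CPM at 100, 156, 127 and 118 CPM at 300, 119.8, 141 and 118 CPM at 600, and 83.6 and 87.1 CPM at 900 mg/kg/day. Both litters at 900 mg/kg/day lay below all vehicle litters, while the other doses overlapped the vehicle group. Replicate 1 at 100 mg/kg/day, 1 of the 2 litters apart, was as low as the litters at 900 mg/kg/day.

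At 900 mg/kg/day Hmox1 averaged 85.3 ± 2.46 CPM (SD, n = 2), against 160.4 ± 47.9 CPM in vehicle litters (n = 3). The log2 fold change was -0.91 ± 0.28, with an interval of 0.35-fold to 0.809-fold and an unadjusted p of 0.00622, and it missed the threshold over all genes (edgeR adjusted p = 0.498). The smaller differences at 100, 300 and 600 mg/kg/day were -0.26 ± 0.24, -0.26 ± 0.24 and -0.35 ± 0.24. The trend was -0.077 ± 0.026 log2 per 100 mg/kg/day (unadjusted p = 0.00845, adjusted p = 0.489). Groups that do not overlap were common at this dose, whose 2 litters separate by chance from 3 vehicle litters more often than 3 litters do. Such groups were seen for 2 of 8 genes (Hmox1 lower, Nqo1 higher), beside 19.2% of all tested genes (8.83% lower, 10.3% higher). At 100, 300 and 600 mg/kg/day 0 of 8 genes had them, beside 5.98%, 9.34% and 11% of all tested genes. Of these, 2.99%, 4.88% and 5.06% were higher and 2.99%, 4.46% and 5.92% were lower.

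The Hmox1 result changed with the 2 litters apart. Without both of them, a choice made after seeing the data, the log2 fold change at 900 mg/kg/day was -1.13 ± 0.16 and passed in edgeR (adjusted p = 0.000917). The trend was then -0.11 ± 0.016 and passed too (adjusted p = 0.00142). In that fit calls were common: 2102 of 12608 genes (16.7%) passed at 900 mg/kg/day, against 32 with all litters, and 1494 (11.8%) passed in the trend, against 54 with all litters. Of the 8 genes Hmox1 alone passed in each, so their share was near that of the table. Lower genes made up 9.04% and 5.46% of the table. The 900 mg/kg/day litters were the only ones left with scores below -1.84 on the first principal component.

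Leaving out 1 litter at a time gave no call for Hmox1, with adjusted p from 0.0979 to 1 at 900 mg/kg/day, the lowest without replicate 1 at 100 mg/kg/day. In the trend the lowest was 0.0614, again without that litter. At 900 mg/kg/day the log2 fold change ran from -1.10 without vehicle replicate 1 to -0.67 without vehicle replicate 2, the vehicle litter with the highest Hmox1 level. The lower doses turned on the same vehicle litter. Without it Hmox1 was at -0.017, -0.016 and -0.11 at 100, 300 and 600 mg/kg/day, and the lowest values there were -0.50, -0.45 and -0.54. At 100 mg/kg/day it was -0.020 without replicate 1 of that dose. The trend ran from -0.090 to -0.061. Leaving out a 900 mg/kg/day litter leaves 1 there, whose spread is then taken from the other doses.

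**Figure D2:**
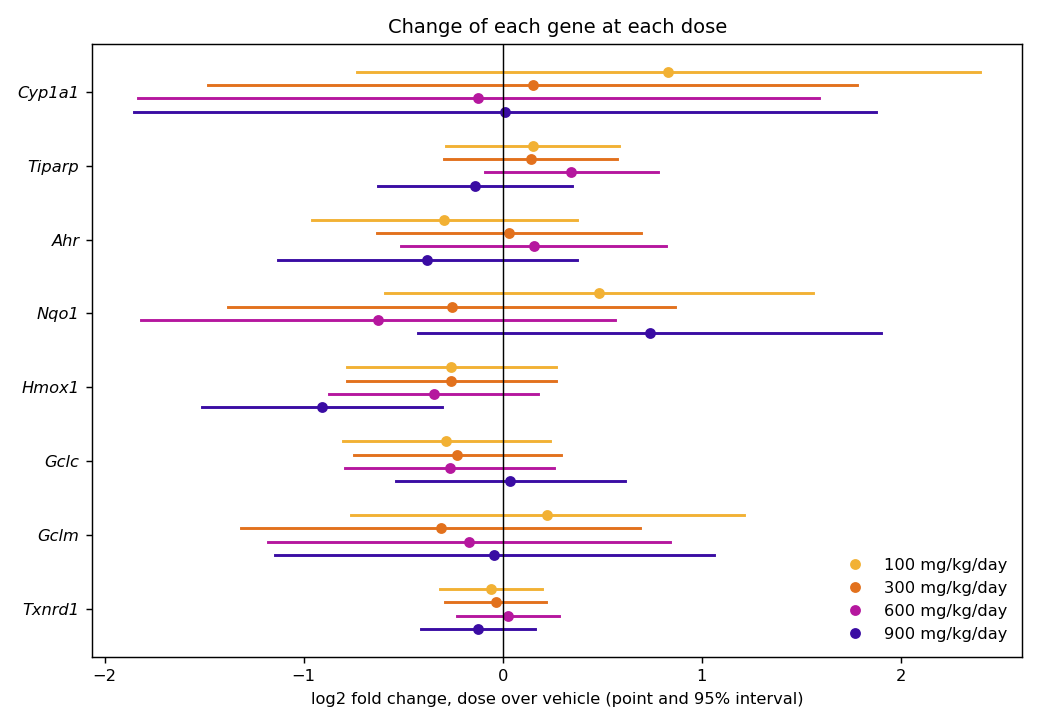
log2 fold change of each gene at each dose over vehicle (x axis), as point and 95% interval from edgeR, with genes down the page and doses in colour from 100 to 900 mg/kg/day. The interval of Hmox1 at 900 mg/kg/day (-1.51 to -0.31) is the only one of 32 that does not reach 0, and those of Txnrd1 are the narrowest.

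Leydig cell markers were also lower at 900 mg/kg/day. The Leydig marker sum, over 7 of 7 genes, was 1023 to 1259 CPM at 900 mg/kg/day, against 3744 to 7883 CPM in vehicle litters, and 4 of the 7 fell by the edgeR test at this dose. Insl3, the hormone that guides testis descent, gave 60.8% to 82.3% of the sum in a library and Cyp11a1, the first enzyme of steroid synthesis, 11.3% to 18.6%, while Lhcgr and Hsd3b1 had at most 43 and 47 counts. In bulk tissue fewer cells of a type and less RNA per cell cannot be told apart. Across the 14 litters Hmox1 and the Leydig marker sum had Pearson r = 0.791 and Spearman rho = 0.736, with permutation p of 0.00068 and 0.00364. Over the 92 relations computed (28 pairs of the 8 genes and 64 of a gene with a marker sum) the Benjamini-Hochberg values of these permutation tests were 0.0209 and 0.0682. After removal of each dose group's mean, r was 0.669, and without the litters farthest from the median of Hmox1 it was 0.607. It was 0.883 without the 2 litters apart. Leydig markers fall with dose in these data and were listed with that known, and their part in the Hmox1 result was not tested.

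Macrophages turn over heme, and red cells carry it. Macrophage markers (8 of 9 tested, Cd163 at 0 to 10 counts) summed to 32.2 to 35.8 CPM at 900 mg/kg/day and 29.1 to 32.9 CPM in vehicle litters. Erythroid markers (6 of 12 tested) summed to 4714 to 7097 CPM at 900 mg/kg/day and 6977 to 14029 CPM in vehicle litters. The globin genes Hbb-b1 and Hba-a2 made up most of this sum, with at least 35789 and 14299 counts in a library. Each of the others had at most 1250. The highest erythroid sum, 26491 CPM, was in replicate 2 at 600 mg/kg/day, where Hmox1 was at 141 CPM. Hmox1 had r = 0.355 with the macrophage sum and r = -0.00042 with the erythroid sum (rho 0.336 and -0.292), with permutation p of 0.214 and 0.999 for r and 0.24 and 0.309 for rho. Neither passed after adjustment over the 92 relations. After removal of dose group means r was 0.744 with the macrophage sum and -0.464 with the erythroid sum. Without the litters farthest from the median of Hmox1 it was 0.498 and 0.032, and without the 2 litters apart 0.227 and 0.055. The part of these cells in the Hmox1 values was not tested.

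Gclc and Gclm encode the catalytic and the modifier subunit of glutamate-cysteine ligase, the enzyme that sets the rate of glutathione synthesis. Gclc (ENSRNOG00000006302, chr8:78630127-78668545 on rn7, plus strand) had 87 to 293 counts. It was at 28.7, 18.8 and 18.4 CPM in vehicle litters, 23.1, 16 and 15.1 CPM at 100, 14.4, 17.9 and 24.2 CPM at 300, 19.6, 19.0 and 16.1 CPM at 600, and 19.9 and 25.2 CPM at 900 mg/kg/day. Replicate 1 on vehicle had the highest value of all 14 litters, and each dosed group overlapped the vehicle group. Its log2 fold change at 900 mg/kg/day was 0.037 ± 0.27, an interval of 0.688-fold to 1.53-fold.

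Gclm (ENSRNOG00000013409, chr2:210347482-210367536 on rn7, plus strand) had 27 to 122 counts. Its level was 12.1, 3.78 and 6.52 CPM in vehicle litters, 15.8, 4.19 and 6.32 CPM at 100, 5.91, 7.00 and 5.10 CPM at 300, 7.50, 7.31 and 4.99 CPM at 600, and 8.31 and 6.27 CPM at 900 mg/kg/day. The 2 highest values were those of the 2 litters apart, and the other 12 litters lay between 3.78 and 8.31 CPM. With all litters the log2 fold change at 900 mg/kg/day was -0.042 ± 0.51. Without those 2 litters it was 0.47 ± 0.31 and still did not pass (edgeR adjusted p = 0.325).

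Txnrd1 encodes cytosolic thioredoxin reductase, a selenoprotein that keeps thioredoxin reduced. It was the steadiest of the 8 genes (ENSRNOG00000009088, chr7:20830045-20907864 on rn7, minus strand; 308 to 685 counts). Levels were 66.3, 66.6 and 57.8 CPM in vehicle litters, 62.6, 56.1 and 64.5 CPM at 100, 59.0, 66.3 and 60.8 CPM at 300, 70.4, 66.9 and 57.0 CPM at 600, and 57.8 and 58.8 CPM at 900 mg/kg/day. Over 14 litters its coefficient of variation was 7.37%, beside about 4.44% from counting error alone. Its log2 fold change was -0.12 ± 0.13 at 900 mg/kg/day, and the 95% intervals of the 4 doses together spanned -0.41 to 0.28 on the log2 scale.

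The coefficient of variation within dose groups was 7.84% for Txnrd1. It was 18.9% for Tiparp, 28.2% for Ahr, 25.1% for Hmox1, 22.4% for Gclc and 50.6% for Gclm. Counting error alone gives about 4.67%, 5.51%, 3.13%, 7.99% and 13.7%. For Cyp1a1 and Nqo1 it was 78.4% and 46.3%, with counting error at 36.7% and 27.7%.

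Some of the genes varied together across litters. Ahr and Tiparp were high and low in the same litters, with r = 0.789 and rho = 0.864 (n = 14). Their permutation p were 0.00067 and 0.0002, and this was the only 1 of the 92 relations to pass with both measures (adjusted 0.0209 and 0.0184). The r of Ahr with Tiparp was 0.846 after removal of dose group means, 0.787 without the litters farthest from the median of Tiparp, and 0.672 without the 2 litters apart. Genes outside the 8 ran closer to each, such as Usp4 with Tiparp (r = 0.946) and Zfp382 with Ahr (r = 0.946). The 2 litters apart, lowest on the first principal component, were low for both genes. The adjustment covers the 92 relations only. How many of all tested genes correlate this strongly with Ahr, Tiparp or Gclm was not tested.

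Gclm ran against Ahr, with r = -0.834 and rho = -0.719 (permutation p = 0.0002 and 0.00523, adjusted 0.0184 and 0.0687). Without the 2 litters farthest from the median of Ahr, which were the 2 litters apart, r was -0.613. Gclm ran against Tiparp as well, with r = -0.774 and rho = -0.727 (permutation p = 0.00123 and 0.00445, adjusted 0.0283 and 0.0682) and r = -0.757 without the 2 litters farthest from the median of Tiparp. Ahr and Hmox1 had r = 0.716 and rho = 0.732 (permutation p = 0.00466 and 0.00411), which missed the threshold after adjustment (0.0608 and 0.0682). Without the 2 litters apart r was -0.682 for Gclm with Tiparp and 0.687 for Ahr with Hmox1.

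**Figure D3:**
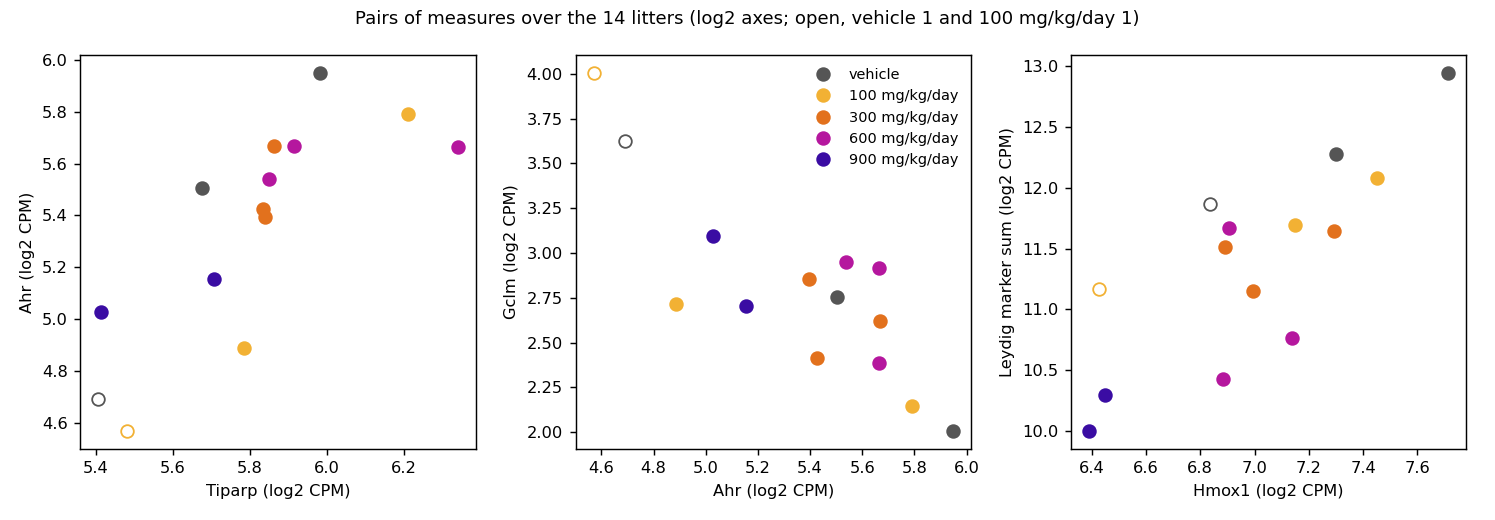
Levels of Tiparp against Ahr, Ahr against Gclm, and Hmox1 against the summed Leydig markers, in log2 CPM on both axes. Each point is 1 of the 14 litters, coloured by dose, with the 2 litters apart open. The open points are the lowest for Ahr and the highest for Gclm, and the 900 mg/kg/day points are lowest for the Leydig sum.

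Among named genes with a mean of at least 20 counts, those nearest in pattern over the 14 litters were found by Pearson r of log2 CPM. They are a description, picked from all tested genes. For Hmox1 they were Igfbp2 (0.944), Cyb5a (0.934), the cytochrome b5 that aids the lyase step of androgen synthesis, and Scp2 (0.928), a sterol carrier protein. For Ahr they were Zfp382 (0.946), Marchf3 (0.945) and She (0.937), and for Tiparp Usp4 (0.946), Eif2s2 (0.934) and Kdm1a (0.922). For Gclm they were Golgb1 (0.956), Aph1a (0.951) and Hikeshi (0.95). Txnrd1 had no neighbour above 0.786 (Dhps).

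With all litters the tested regulators of both pathways did not pass either. Nfe2l2, the NRF2 gene, averaged 106 ± 14.1 CPM at 900 mg/kg/day (SD, n = 2), against 143 ± 29.3 CPM in vehicle litters (n = 3), a log2 fold change of -0.43 ± 0.20 (edgeR adjusted p = 0.852). With the 2 litters apart left out it was -0.59 ± 0.13 and passed (adjusted p = 0.00699), in a fit where 16.7% of all tested genes did. Bach1, the repressor of Hmox1, averaged 78.5 ± 10.4 CPM at 600 and 51.5 ± 4.52 CPM at 900 mg/kg/day, against 62.2 ± 9.32 CPM in vehicle litters. Its log2 fold changes were 0.34 ± 0.18 and -0.27 ± 0.21, and neither passed. Arnt, the partner of AhR, was at 3.01 ± 0.293 CPM at 600 mg/kg/day and 5.19 ± 2.17 CPM in vehicle litters (n = 3 each), a log2 fold change of -0.79 ± 0.36 (edgeR adjusted p = 0.95), and at 0.11 ± 0.37 at 900 mg/kg/day. Ahrr, the AhR repressor, and Keap1 had at most 5 and 3 counts in a library and were not tested.

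Wider lists of each pathway were read by counts and medians. The NRF2 list holds regulators as well as targets, among them Nfe2l2, Nfe2l1, Mafk and the repressor Bach1. Its counts and medians are therefore not those of NRF2 targets alone. Of 34 rows tested on the NRF2 list (33 gene names, since Cbr1 has 2 rows, and with Nfe2l2 also on the AhR list), 0 rose and 0 fell in any of the 5 comparisons in edgeR. At an unadjusted p under 0.05 there were 6, 6, 6 and 6 of 34 rows at the 4 doses and 4 in the trend, all lower, beside 1.6%, 1.76%, 2.89%, 2.86% and 2.86% of all tested genes that were lower by that rule. At 900 mg/kg/day 28 of the 34 values were negative, with a median log2 fold change of -0.27, beside 46.9% negative and a median of 0.024 over all tested genes. At 100, 300 and 600 mg/kg/day 24, 29 and 22 were negative, with medians of -0.17, -0.20 and -0.14, beside 0.010, -0.015 and -0.021 over all tested genes. The 4 medians share the vehicle litters. Leaving out the 2 litters apart, 26, 29, 24 and 26 of the 34 values were negative at the 4 doses, with medians of -0.23, -0.22, -0.17 and -0.34. In that fit 0, 4, 2 and 10 of the 34 rows fell at the 4 doses and 6 in the trend, beside 0%, 0.309%, 0.468%, 9.04% and 5.46% of all tested genes. Of the 34, 1 row rose, Akr1a1, an aldehyde reductase, at 900 mg/kg/day. The rows that fell at 300 mg/kg/day were Gsta1, Idh1 and both of Cbr1, and at 600 mg/kg/day Gsta1 and Idh1, all named after their values were seen. In that fit the 2 Cbr1 rows changed alike, by -0.488 and -0.488 at 300 and by -0.706 and -0.705 at 900 mg/kg/day. They are counted apart at both doses but may not be separate measurements. Leydig markers had, in the fit with all litters, median log2 fold changes of -0.82, -0.99, -1.48 and -2.19 at the 4 doses, and their part in the NRF2 list values was not tested.

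The NRF2 list member nearest the threshold was Idh1, cytosolic isocitrate dehydrogenase, a source of NADPH. It averaged 188 ± 25.5 CPM at 900 mg/kg/day (n = 2), against 326 ± 45.8 CPM in vehicle litters (n = 3), a log2 fold change of -0.79 ± 0.16 (edgeR adjusted p = 0.0872), with a trend of -0.072 ± 0.016 log2 per 100 mg/kg/day (adjusted p = 0.0617). The change at 900 mg/kg/day was -0.93 ± 0.10 and passed without the 2 litters apart (adjusted p = 0.000199). The same fit called 16.7% of all tested genes at that dose. Ephx1, microsomal epoxide hydrolase, averaged 11.3 ± 1.42 CPM at 600 and 12.1 ± 1.74 CPM at 900 mg/kg/day, against 21.3 ± 4.50 CPM in vehicle litters. Its trend was -0.096 ± 0.024 (adjusted p = 0.129). Osgin1, at a mean of 9.57 counts (trend -0.22 ± 0.080), Gsta1, a glutathione transferase (-0.12 ± 0.053, with close paralogues whose counts may be shared), Tkt, transketolase (-0.028 ± 0.014), and Blvra, biliverdin reductase, which acts after Hmox1 (-0.056 ± 0.035), did not pass with all litters. Osgin1 and Ephx1 fell in the trend once the 2 litters apart were left out (-0.25 ± 0.081 and -0.074 ± 0.021, adjusted p = 0.0479 and 0.0347). Of all tested genes 5.46% fell in that trend.

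The AhR list had 6 genes tested of 8 in the table, and the ATF4 list, the amino acid and endoplasmic reticulum stress response that shares targets with NRF2, had 10 of 12. With all litters 0 genes of either list rose or fell in any comparison in edgeR. Of the 6 AhR list values 2, 5, 6 and 3 were negative at 100, 300, 600 and 900 mg/kg/day, with medians of 0.092, -0.17, -0.53 and -0.025, beside 47.7%, 52.9%, 53.2% and 46.9% negative over all tested genes. With the 2 litters apart left out, 4, 4, 4 and 3 were negative, with medians of -0.035, -0.19, -0.19 and 0.080, and Nfe2l2, which is on this list too, fell at 900 mg/kg/day and in the trend. For the ATF4 list the medians were -0.096, -0.22, -0.25 and -0.052 at the 4 doses, and -0.29, -0.079, -0.12 and -0.16 without the 2 litters apart. In that fit 1 of 10 genes rose (Psat1) and 1 fell (Ddit3) at 900 mg/kg/day, and Ddit3 fell in the trend. For both lists such calls stand beside 16.7% of all tested genes at 900 mg/kg/day and 11.8% in the trend. Ddit4, an inhibitor of mTOR complex signalling that stress induces, was at -0.60 ± 0.23 at 900 mg/kg/day (adjusted p = 0.827), and its trend was -0.072 ± 0.022 (adjusted p = 0.365). Ppp1r15a, which reverses the translation block of that response, was at 0.40 ± 0.14 at 600 mg/kg/day (adjusted p = 0.808).

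**Figure D4:**
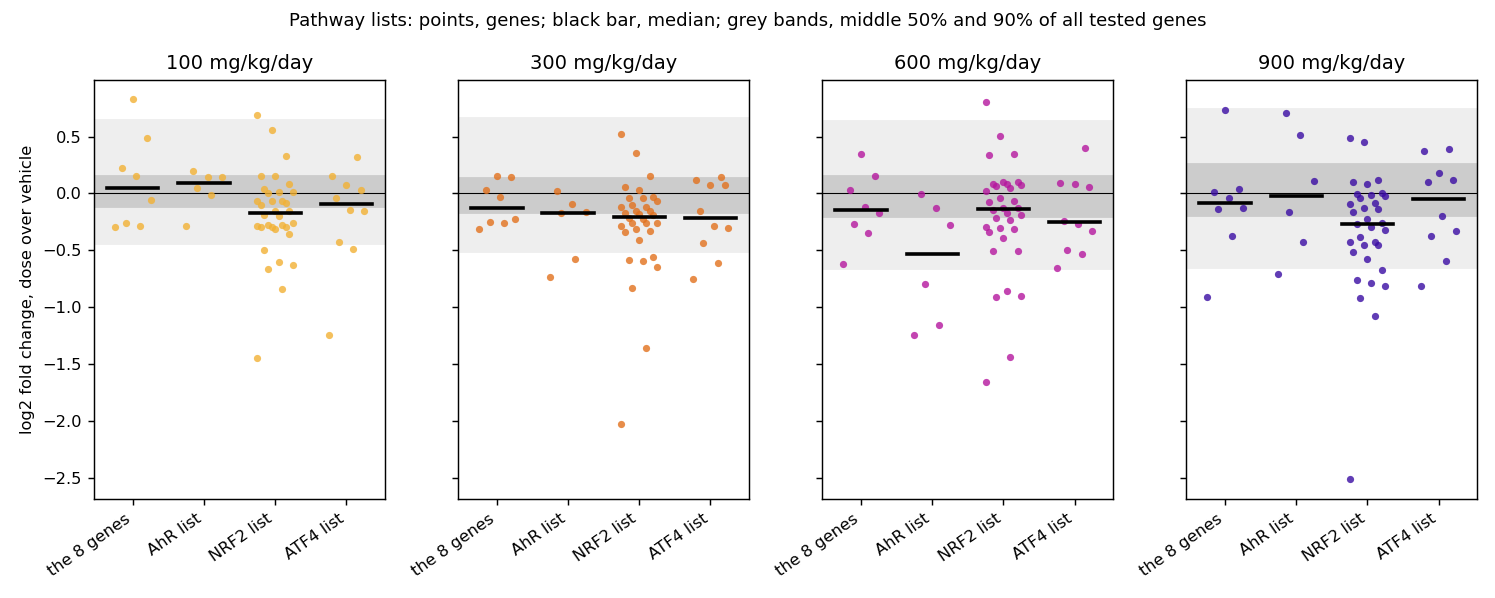
log2 fold change over vehicle (y axis) of the 8 genes and of the AhR, NRF2 and ATF4 lists (x axis), with a panel for each dose from 100 to 900 mg/kg/day. Points are genes, black bars are medians, and grey bands hold the middle 50% and 90% of all tested genes. The NRF2 median lies below 0 at each dose and is lowest at 900 mg/kg/day (-0.27).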

How the data were processed

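Gene expression was measured by TempO-Seq in pooled fetal testes of 14 litters. The authors deposited estimated counts per Ensembl gene. STAR 2.7.8a, Partek, DESeq2 and the genome build rn7 appear in the submitters' processing notes, and which step used which is not given in the sources used here. Of the values 83.6% were whole (tolerance 1e-06), and the rest were rounded to whole counts. Another deposited table of estimated counts multiplies 16 genes, none of the 8 among them, to undo probe attenuation, and it was used as an alternative. A deposited log2 CPM table was not used.

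Genes were filtered with edgeR's filterByExpr (12719 kept, 5455 left out, 99.9% of counts kept) and scaled by TMM. One model (edgeR 4.0.16 in R 4.3.3, quasi-likelihood, robust prior) took all 14 libraries, which leaves 9 residual degrees of freedom. Each dose was contrasted with vehicle, two-sided, and the slope over dose came from a second model. The threshold was 0.05 on p-values adjusted by Benjamini-Hochberg across the tested genes. The 95% intervals come from the standard error and the moderated degrees of freedom. Correlations used log2 CPM (prior count 2) and 100000 permutations, two-sided (scipy 1.17.1). The methods were tested on simulated data first. DESeq2 1.42.0 was an alternative. Library totals of 5558873 to 11272861 counts and 2 or 3 litters per group limit precision.

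The 10 genes are named whatever their values. From the pathway lists, the 6 smallest trend p of each and Arnt, Ahrr, Nfe2l2, Keap1 and Bach1 may be named, as may the 3 genes nearest in pattern. Replicates, which are separate litters per the labels, are numbered in accession order. Genes and lists were chosen with earlier results of these data known. A call of 1 further list gene is not reported here.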

Additional observations from a re-analysis of the deposited data

How the results depend on the processing

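None of the 8 genes passed in any comparison with RLE size factors, library totals only, DESeq2, no filter, attenuation-adjusted counts, no robust prior, dose rank or only the compared groups, or with any 1 library left out. No paired analysis was possible because litters carry no number shared between doses. Without the 2 litters apart (replicate 1 on vehicle and at 100 mg/kg/day), chosen after seeing the data, 1 of 8 (Hmox1) passed at 900 mg/kg/day, beside 16.7% of all tested genes, and 1 in the trend, beside 11.8%. The medians of the AhR list then changed sign at 100 (-0.035) and 900 mg/kg/day (0.080), and the ATF4 list trend median was 0.0016. Of 318 values of the 8 genes under the settings other than leaving out 1 library, 300 kept their sign and 18 changed it. With RLE they were Cyp1a1 at 900 mg/kg/day (-0.014) and the Tiparp trend (-0.00026). With library totals Gclm at 900 mg/kg/day was 0.036, with DESeq2 the Tiparp trend was -0.00027, without a filter Txnrd1 at 600 mg/kg/day was -0.0022, with dose rank the Gclc trend was -0.0037, and with only the 2 groups Cyp1a1 at 900 mg/kg/day was -0.012. Without the 2 litters apart, values at 300 mg/kg/day were -0.12 for Cyp1a1, -0.24 for Ahr, 0.17 for Nqo1, 0.0072 for Gclc and 0.23 for Gclm. At 600 mg/kg/day they were -0.12 for Ahr and 0.38 for Gclm, at 900 mg/kg/day -0.30 for Cyp1a1 and 0.47 for Gclm, and in the trend -0.023 for Tiparp and 0.053 for Gclm. The cause was not tested.

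Leaving out 1 library in turn, signs changed within these ranges. At 100 mg/kg/day they were -0.031 to 1.91 for Cyp1a1, -0.065 to 0.31 for Tiparp, -0.74 to 0.026 for Ahr, -0.060 to 0.91 for Nqo1 and -0.50 to 0.77 for Gclm. At 300 mg/kg/day they were -0.32 to 1.23 for Cyp1a1, -0.24 to 0.35 for Ahr, -0.46 to 0.17 for Nqo1, -0.44 to 0.012 for Gclc, -0.63 to 0.23 for Gclm and -0.099 to 0.0058 for Txnrd1. At 600 mg/kg/day they were -0.70 to 0.96 for Cyp1a1, -0.12 to 0.47 for Ahr, -0.49 to 0.37 for Gclm and -0.038 to 0.11 for Txnrd1. At 900 mg/kg/day they were -0.38 to 1.09 for Cyp1a1, -0.29 to 0.023 for Tiparp, -0.14 to 0.28 for Gclc and -0.36 to 0.50 for Gclm. In the trend they were -0.013 to 0.023 for Tiparp, -0.023 to 0.017 for Ahr, -0.019 to 0.055 for Nqo1, -0.017 to 0.026 for Gclc and -0.044 to 0.0092 for Gclm. Hmox1 stayed negative in each of these fits, at -0.50 to -0.017 at 100 mg/kg/day.

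The counts over all tested genes, which serve as background, moved more. From 100 mg/kg/day up to the trend they were 0, 6, 28, 32 and 54, and 2, 27, 59, 91 and 119 with DESeq2. RLE gave 15 at 600 mg/kg/day, only the 2 groups gave 8 at 600 and 4 at 900 mg/kg/day, and without the 2 litters apart they were 39, 66, 2102 and 1494 from 300 mg/kg/day to the trend. With 1 library left out they ran from 0 to 9 at 300, 6 to 50 at 600, 0 to 50 at 900 mg/kg/day and 30 to 76 in the trend. The count at 900 mg/kg/day was 0 and 9 without its replicates 1 and 2, where the 1 litter left borrows its spread from the other doses, 15 without vehicle replicate 3 and 50 without replicate 1 at 100 mg/kg/day. Cyp1a1 and Nqo1, at means of 10.1 and 17.3 counts, had wide intervals, with coefficients of variation within dose groups of 78.4% and 46.3%, beside 36.7% and 27.7% from counting error.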
